A study of Rattus norvegicus with 40 samples.

Results

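Macrophages of the liver were followed here through 10 marker genes, named as a set by symbol: Marco, Cd163, Cd5l, Clec4f, Vsig4 and Timd4 for resident Kupffer cells, Cd68 for macrophages in general, and Trem2, Gpnmb and Cd9 for macrophages loaded with lipid or lying in scars. Of these, 9 had a row among the 17337 genes counted, and Timd4 was not analysed here. Messenger RNA was measured by RNA-seq in 40 liver libraries from 24 male Fischer 344 rats, which were 7 weeks old when treatment began. Diethylnitrosamine (DEN), a carcinogen that hepatocytes activate, was given each week into the peritoneum at 50 mg/kg. The groups were liver of untreated rats ("no DEN") and non-tumoral liver of DEN-treated rats ("NT") at 8, 14 and 20 weeks, and tumor nodules at 14 and 20 weeks, with 4 rats in each. The rats of the 20-week DEN groups had received 14 weeks of injections and then 6 weeks without DEN. NT and nodules came from the same rats, 2 nodules per rat, and the counts of both nodules were added.

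Kupffer cells are the macrophages that live in the sinusoids of the liver, where they clear particles, microbes and worn red cells from the blood. When the liver is injured, monocytes enter from the blood and become macrophages, and in fibrotic or fatty liver a population that carries TREM2, GPNMB and CD9 is known to collect along scars. In whole tissue, fewer cells of a type and less RNA per cell cannot be told apart, and CD9 in particular is carried by many cell types besides macrophages.

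Counted read pairs ranged from 20528515 to 160622633 per library, with a median of 30477421, and the largest library, NT of rat H26 at 20 weeks, held 4.08 times as many as the next. Levels are given as CPM, the counts scaled to a library total common to all libraries, after correction by the trimmed mean of M values (TMM), and are compared within a gene only. The 6 hepatocyte genes checked summed to between 231000 and 270000 CPM in no DEN rats of all ages, and Clec4f, found in rodents on Kupffer cells, lay between 91.8 and 274 CPM in every rat. Of the 24 rats, 4 had numbers beginning with F and the others H, a letter that the labels do not explain. All 4 F rats had received DEN (F09 and F10 at 8 weeks, F06 at 14, F03 at 20). The main results that rest on them are therefore also given without them, as fold changes or as levels of the H rats.

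The sequences just upstream of the genes that passed between nodules and NT at 20 weeks, in a fit that used the pairing within rats, are shown here. They set what the promoters hold beside how the genes moved. In the same fit without the pairing no gene passed, and only the Gpnmb and Cd9 calls held whichever rat was left out. Trem2 is included as a description, since nodules carried it past the filter on low counts. The sequences are the 250 bases before the RefSeq start of Gpnmb, Cd9 and Trem2, which were higher in nodules, and of Marco and Vsig4, which were lower. They read 5′ to 3′ on the strand of the gene, in the GRCr8 assembly of the promoter table, which is not the rn6 build used for the counts. Capitals mark TGAGTCA (the AP-1 motif), CACATGA (the M-box of the MITF and TFE factors) and GAGGAAG (an ETS motif of the kind PU.1 binds), on either strand, and no matches overlapped.
Gpnmb, GRCr8 chr4:79340878-79341127, plus strand: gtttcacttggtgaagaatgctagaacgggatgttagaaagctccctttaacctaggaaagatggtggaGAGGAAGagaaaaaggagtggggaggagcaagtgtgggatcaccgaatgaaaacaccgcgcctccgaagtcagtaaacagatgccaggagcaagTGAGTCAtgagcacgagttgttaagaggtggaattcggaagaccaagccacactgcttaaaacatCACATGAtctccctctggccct
Cd9, GRCr8 chr4:159975359-159975608, minus strand: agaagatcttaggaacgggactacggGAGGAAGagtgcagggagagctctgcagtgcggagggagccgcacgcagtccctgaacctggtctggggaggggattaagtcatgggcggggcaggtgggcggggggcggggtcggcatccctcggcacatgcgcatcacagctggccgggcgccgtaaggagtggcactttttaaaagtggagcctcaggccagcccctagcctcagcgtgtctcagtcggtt
Trem2, GRCr8 chr9:20151780-20152029, minus strand: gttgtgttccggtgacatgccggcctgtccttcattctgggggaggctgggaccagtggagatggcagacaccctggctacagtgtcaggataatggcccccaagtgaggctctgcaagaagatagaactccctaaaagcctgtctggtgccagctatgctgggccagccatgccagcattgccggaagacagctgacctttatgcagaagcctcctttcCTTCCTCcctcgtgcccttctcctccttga
Marco, GRCr8 chr13:34201256-34201505, minus strand: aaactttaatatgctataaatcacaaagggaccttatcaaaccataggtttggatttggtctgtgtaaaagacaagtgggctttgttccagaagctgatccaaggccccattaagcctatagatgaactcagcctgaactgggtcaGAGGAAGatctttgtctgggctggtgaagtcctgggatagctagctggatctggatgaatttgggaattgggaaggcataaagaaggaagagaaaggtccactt
Vsig4, GRCr8 chrX:65179709-65179958, minus strand: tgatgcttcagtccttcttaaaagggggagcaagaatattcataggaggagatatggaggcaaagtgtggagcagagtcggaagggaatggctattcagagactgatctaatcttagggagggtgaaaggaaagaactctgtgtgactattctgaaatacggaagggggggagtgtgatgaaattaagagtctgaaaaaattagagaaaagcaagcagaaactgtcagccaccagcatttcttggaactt

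Gpnmb was the member with the most matches, holding all 3 motifs: GAGGAAG from 181 to 175 bases before the start, TGAGTCA from 87 to 81, and CACATGA from 22 to 16. TGAGTCA was found in 4.05% of all 33469 windows of this length, and among the 10 members in Gpnmb and, at 2 places, in Cd68. CACATGA was found in 3.07% of windows and in Gpnmb alone of the members. GAGGAAG was found in 10.2% of windows and in 5 members, namely Marco, Cd5l, Trem2, Gpnmb and Cd9. Vsig4, Clec4f, Cd163 and Timd4 held none of these letters in this window. A match is a description of the letters, and binding was not measured.

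Gpnmb, a glycoprotein of lysosomal and cell membranes, had the largest fold change of the members tested in NT liver at 8 and 14 weeks. In NT liver at 8 weeks it lay at 63.9, 68.2, 58.8 and 78.7 CPM, against 42.8, 26.7, 23.1 and 27.2 CPM in no DEN liver. At 14 weeks the NT values were 103, 59.9, 52.1 and 55.6 CPM and the no DEN values 19.5, 24.8, 25.9 and 22.96 CPM. At 20 weeks the NT values were 65.3, 34.5, 51.9 and 51.1 CPM and the no DEN values 22.98, 23.3, 21.2 and 13.9 CPM. Every NT rat was thus above every untreated rat of its age. How many of all genes separated like this was not counted, here or for the other members below. At 8, 14 and 20 weeks, 45.7%, 59.9% and 40.2% of all genes had an unadjusted p of at most 0.05 (edgeR). The log2 fold change was 1.16 ± 0.18 (SE) at 8 weeks (adjusted p = 0.00102, edgeR), 1.58 ± 0.23 at 14 weeks (adjusted p = 0.000519) and 1.33 ± 0.22 at 20 weeks (adjusted p = 0.00302), with n = 4 rats a group.

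**Figure D1:**
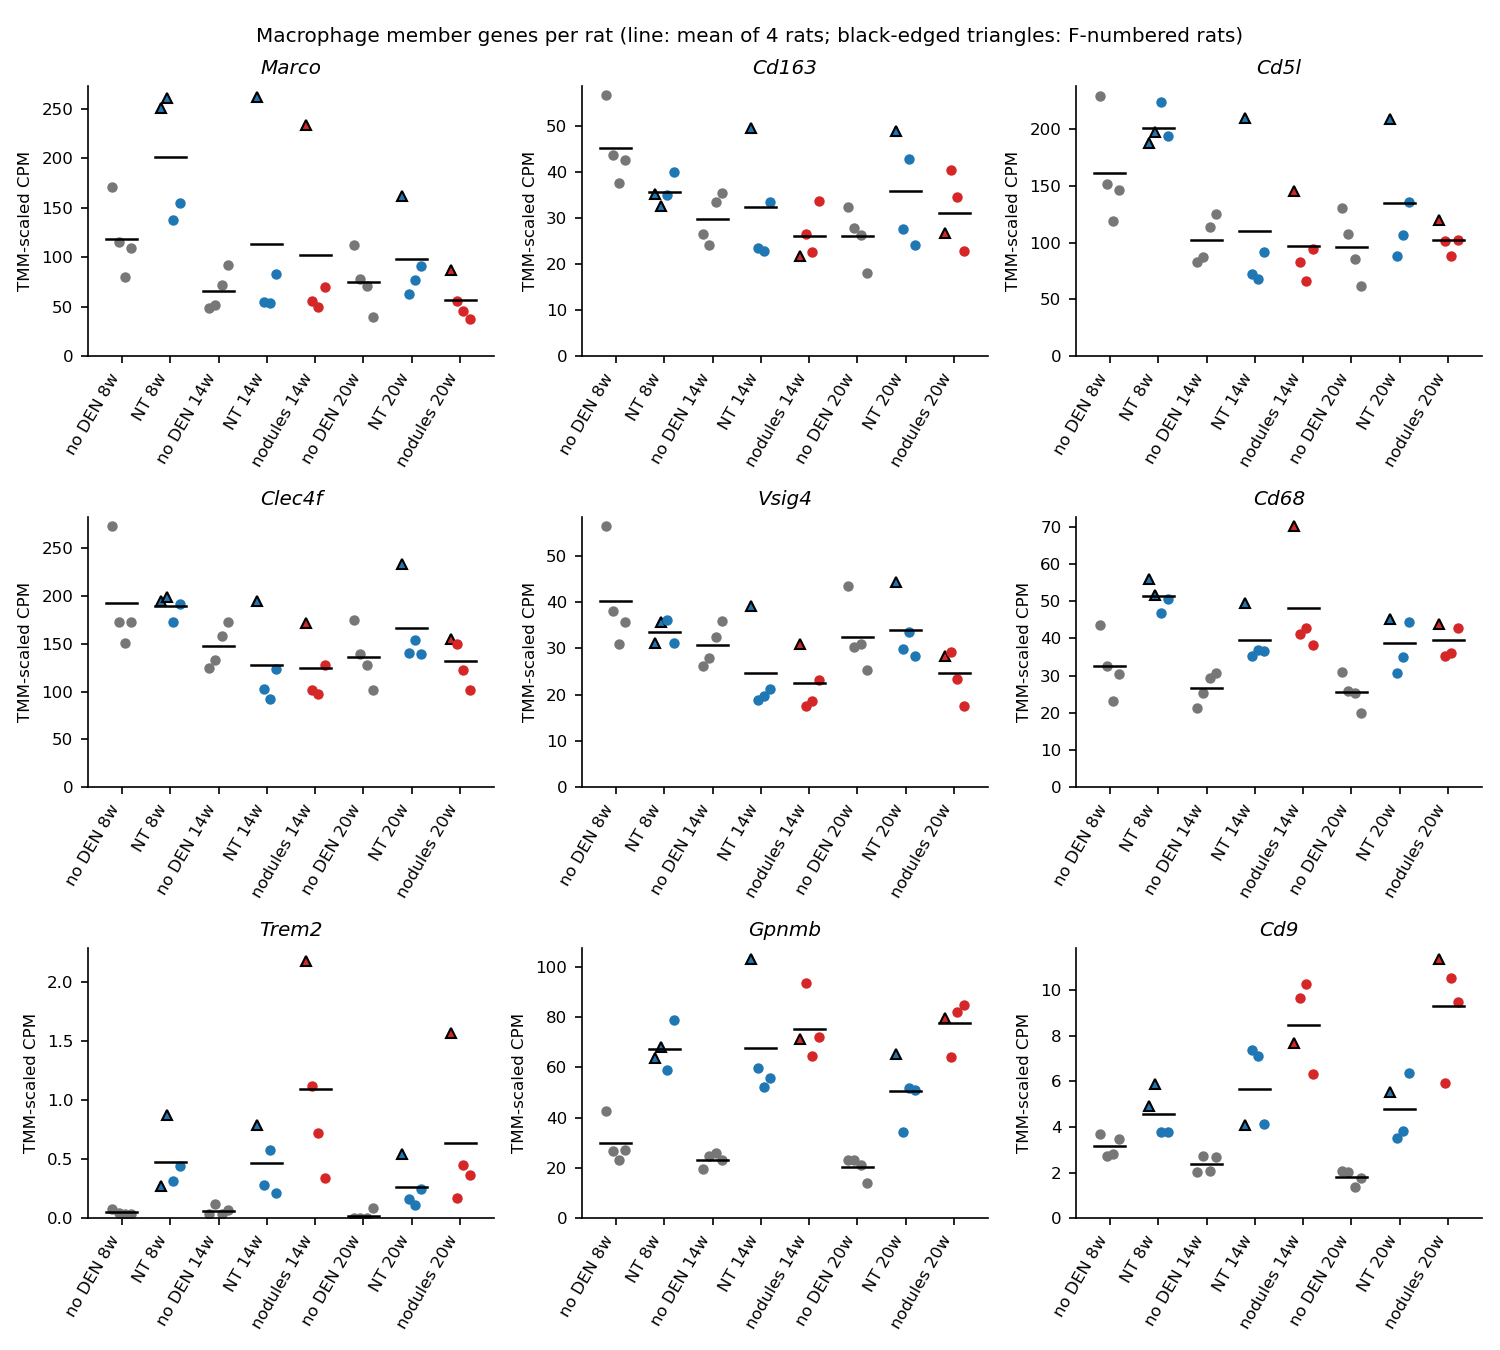
TMM-scaled CPM of each of the 9 genes (y axis, from 0) in each rat of the 8 groups (x axis), in grey for no DEN, blue for NT and red for nodules, with a line at the mean of 4 rats and black-edged triangles for F-numbered rats. The Gpnmb panel shows all NT and nodule rats above the no DEN rats of their age, and the Marco panel shows F rats at 251 to 262 CPM in NT liver of 8 and 14 weeks.

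Cd68, a lysosomal glycoprotein of macrophages in general, and Cd9, a tetraspanin of the cell membrane, were also higher in NT liver at all 3 times. In total 3 of the 8 members tested passed at 8 weeks, where 21.7% of all 10812 genes tested were called. At 14 weeks the members that passed were again 3 of 8, against 32.6% of all genes. At 20 weeks, 6 weeks after the last injection, they were 3 of 8, against 18.1% of all genes. At 8 weeks 1 member passed at 2-fold and an adjusted p of 0.01 (7.91% of all genes), and DESeq2 called 5 of 9 (20.7%). The 3 were Cd68, Gpnmb and Cd9 each time, all higher, and a gene was called where its log2 fold change reached 0.5 up or down with an adjusted p no higher than 0.05 (edgeR quasi-likelihood test, Benjamini-Hochberg adjustment). With 8 members tested, these shares are not far from the background, and the values of each gene carry the description.

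For Cd68 the mean was 51.3 ± 3.8 CPM (SD, n = 4) in NT and 32.5 ± 8.5 CPM in no DEN liver at 8 weeks, a log2 fold change of 0.65 ± 0.16 (SE, adjusted p = 0.0107, edgeR). At 14 weeks the NT rats held 49.5, 35.3, 36.9 and 36.5 CPM and the untreated rats 21.4 to 30.8 CPM (0.60 ± 0.14, adjusted p = 0.00475). At 20 weeks the NT rats held 30.6 to 45.2 CPM and the untreated rats 19.9 to 30.8 CPM, which overlapped by 1 rat on each side (0.62 ± 0.16, adjusted p = 0.0179). The Cd68 call was lost without the F rats at 8 weeks (log2 fold change 0.60, adjusted p = 0.0864) and at 14 weeks, where 0.46 fell under the fold limit (adjusted p = 0.0035). Leaving out single rats also ended it at 14 weeks without H09 and at 20 weeks without H16, both of them untreated.

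Cd9 had its smallest difference from no DEN liver at 8 weeks. It lay at 4.92, 5.87, 3.77 and 3.77 CPM in NT and 3.68, 2.73, 2.79 and 3.46 CPM in no DEN liver at 8 weeks, with the 2 higher NT values in the F rats. The log2 fold change of 0.53 ± 0.18 (SE) passed narrowly (adjusted p = 0.0444, edgeR), and without the F rats it was 0.26 (adjusted p = 0.34). Of 8 fits that each left out 1 rat, 3 kept the call, and it was also lost with no filter on low counts (adjusted p = 0.0506) and with all 8 groups in 1 fit (adjusted p = 0.0895). At 14 weeks the NT rats held 4.08, 7.36, 7.10 and 4.12 CPM against 2.02 to 2.72 CPM in untreated rats, a log2 fold change of 1.29 ± 0.23 (adjusted p = 0.000931). At 20 weeks they held 5.52, 3.52, 3.81 and 6.37 CPM against 1.38 to 2.06 CPM (1.42 ± 0.24, adjusted p = 0.00232). In both of these the groups were well apart, and here the F rats were not the highest.

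Trem2, a receptor for lipids and lipoproteins that signals through TYROBP, was almost without reads in untreated liver. The no DEN libraries held 2, 1, 1 and 1 counts at 8 weeks, 1, 3, 1 and 2 at 14 weeks, and 0, 0, 0 and 2 at 20 weeks. NT libraries held 9, 30, 10 and 13 counts at 8 weeks, 27, 11, 18 and 8 at 14 weeks, and 17, 6, 18 and 9 at 20 weeks, and every one was above every untreated library of its age. Since so low a gene did not pass the filter on low counts, it was not tested in NT liver, and the added counts per counted pair are compared here. The ratio of NT to no DEN was 11 at 8 weeks (95% exact interval 4.48 to 35.1, 62 against 5 counts), 9.86 at 14 weeks (4.52 to 25.5, 64 against 7 counts) and 9.39 at 20 weeks (2.47 to 79.6, 50 against 2 counts). These intervals cover counting error only, not the spread between rats. Without rat H26, whose library held 18 counts among 160622633 pairs, the ratio at 20 weeks was 15.2 (3.87 to 131). Without the F rats the 3 ratios were 9.06, 7.71 and 7.1. With no filter edgeR called Trem2 higher in NT at all 3 times (adjusted p = 0.00168, 0.002 and 0.0363).

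Of the resident Kupffer genes, none of the 5 tested passed against no DEN liver at any time, though some fold changes (Marco at 8 and 14 weeks) were as large as that of Cd68, with larger errors. The genes code for the scavenger receptors Marco and Cd163, the secreted scavenger protein Cd5l, the lectin Clec4f and the complement receptor Vsig4. Clec4f had log2 fold changes of -0.03 ± 0.16, -0.16 ± 0.23 and 0.30 ± 0.20 (SE) at 8, 14 and 20 weeks, and Cd5l of 0.31 ± 0.17, 0.15 ± 0.38 and 0.50 ± 0.32. For Vsig4 they were -0.27 ± 0.16, -0.27 ± 0.24 and 0.07 ± 0.18. Cd163 stood at -0.34 ± 0.12 at 8 weeks, where the adjusted p of 0.049 (edgeR) was under the limit but the fold was not reached, and at 0.15 ± 0.26 and 0.47 ± 0.25 later. At 14 weeks without the F rat the signs of Cd5l and Cd163 turned, to -0.38 (adjusted p = 0.0796) and -0.15 (adjusted p = 0.514). At 20 weeks leaving out 1 rat gave values as low as 0.09 for Clec4f, 0.20 for Cd5l and 0.28 for Cd163. There the H rats alone averaged 144, 110 and 31.6 CPM in NT, against 136, 96.5 and 26.1 CPM in no DEN. With errors between 0.12 and 0.38 for these 4 genes, a p that missed the limit does not show that the levels were the same.

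Marco was the most uneven of the resident genes, and its level went with the F rats. At 8 weeks the F rats had 251 and 260 CPM and the H rats 137 and 154 CPM, while no DEN liver had 80.1 to 171 CPM. At 14 weeks F06 had 262 CPM in NT and the H rats 54.9, 53.6 and 82.6 CPM, and at 20 weeks F03 had 162 CPM and the H rats 63.0, 76.9 and 91.4 CPM. The NT log2 fold changes against no DEN were 0.75 ± 0.27 (SE, adjusted p = 0.0539, edgeR), 0.81 ± 0.57 and 0.40 ± 0.39, and at 14 weeks the value without the F rat was -0.03. At 8 weeks leaving out 1 rat gave between 0.60 and 0.98, and the call was made in 3 of 8 such fits, each of which kept at least 1 F rat. The H rats alone averaged 146 CPM in NT at 8 weeks, against 119 CPM in no DEN. At 20 weeks they averaged 77.1 CPM against 75.1 CPM, and leaving out 1 rat gave a fold change as low as 0.05. F06 was also the highest NT rat at 14 weeks for Cd163 (49.6 CPM), Cd5l (210 CPM), Clec4f (195 CPM), Vsig4 (39.1 CPM), Cd68, Trem2 and Gpnmb, but the lowest for Cd9.

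Without the F rats Vsig4 came out lower in NT liver at 14 weeks. The 3 H rats had 18.8, 19.8 and 21.2 CPM and the untreated rats 26.2, 27.8, 32.5 and 36.0 CPM, with no overlap. The log2 fold change was -0.60 (adjusted p = 0.000501, edgeR) in a fit where 34.7% of all genes were called, and the members called were then 2 higher (Gpnmb and Cd9) and 1 lower. At 8 and 20 weeks without the F rats, 1 and 3 members were called higher and 0 lower, beside 17.8% and 16.4% of all genes. The meaning of the letter was not tested, and it cannot be told apart from whatever else sets these 4 rats apart.

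In tumor nodules Cd68, Gpnmb and Cd9 were again higher than in no DEN liver. They were the members called at both times, 3 of the 8 tested besides Trem2, all higher. At 14 weeks 39.1% of all 11316 genes were called, and at 20 weeks 38.8% of 11199. These shares of members are near the background, and no resident gene was among them.

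Cd9 in nodules lay at 7.69, 9.64, 10.3 and 6.33 CPM at 14 weeks and 11.3, 5.90, 10.5 and 9.48 CPM at 20 weeks, all above the no DEN rats. The log2 fold changes were 1.82 ± 0.19 (SE, adjusted p = 9.84e-05, edgeR) and 2.33 ± 0.23 (adjusted p = 6.32e-05). Gpnmb in nodules lay at 71.4, 93.7, 64.7 and 72.0 CPM at 14 weeks and 79.8, 64.4, 81.9 and 85.0 CPM at 20 weeks. These too were above all untreated rats, by log2 fold changes of 1.68 ± 0.14 (adjusted p = 3.1e-05) and 1.91 ± 0.16 (adjusted p = 3.15e-05). Cd68 lay at 70.1 CPM in F06 and 38.1 to 42.8 CPM in the H rats at 14 weeks (0.83 ± 0.21, adjusted p = 0.00964), and at 35.2 to 43.7 CPM at 20 weeks (0.60 ± 0.13, adjusted p = 0.00389). The last of these fell under the fold limit without the untreated rat H16, at 0.49.

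Trem2 counts in single nodules at 14 weeks were 75 and 53 in rat F06, 43 and 43 in H21, 29 and 25 in H22, and 9 and 17 in H23. At 20 weeks they were 21 and 85 in F03, 8 and 4 in H25, 13 and 15 in H26, and 15 and 14 in H28. The F rats held the most at both times. At 14 weeks Trem2 entered the tested genes through the nodules alone, where 4 of 4 rats were over the 0.24 CPM limit of the filter against 0 of 4 untreated rats. It had to differ once tested, so its fitted log2 fold change of 4.04 is only a description, which leans on 7 control counts. The ratio of added counts per pair was 23.9 at 14 weeks (95% exact interval 11.4 to 59.9) and 37.0 at 20 weeks (10.1 to 308, against 2 control counts). Without the F rats these ratios were 17 (8.06 to 42.9) and 19.8 (5.28 to 167), and the nodules of F03 held 21 and 85 of the 175 counts at 20 weeks. With no filter edgeR called Trem2 higher at 20 weeks too (adjusted p = 0.00837).

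None of the 5 resident genes passed in nodules against no DEN liver either. Vsig4 was nearest, at 30.8 CPM in F06 and 17.4, 18.5 and 23.04 CPM in the H rats at 14 weeks, and 28.3, 29.1, 23.5 and 17.5 CPM at 20 weeks. Its log2 fold changes were -0.46 ± 0.19 (SE, adjusted p = 0.0703, edgeR) and -0.43 ± 0.20 (adjusted p = 0.0875). Without the F rat it was called lower at 14 weeks (-0.64, adjusted p = 0.00121), in a fit that called 41.5% of all genes, with 3 members higher besides Trem2 and 1 lower. Marco stood at 0.62 ± 0.50 and -0.43 ± 0.32, and its 14-week value turned to -0.17 (adjusted p = 0.585) without the F rat. Cd163 stood at -0.21 ± 0.17 and 0.23 ± 0.21, Cd5l at -0.09 ± 0.24 and 0.06 ± 0.20, and Clec4f at -0.25 ± 0.19 and -0.07 ± 0.18.

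**Figure D2:**
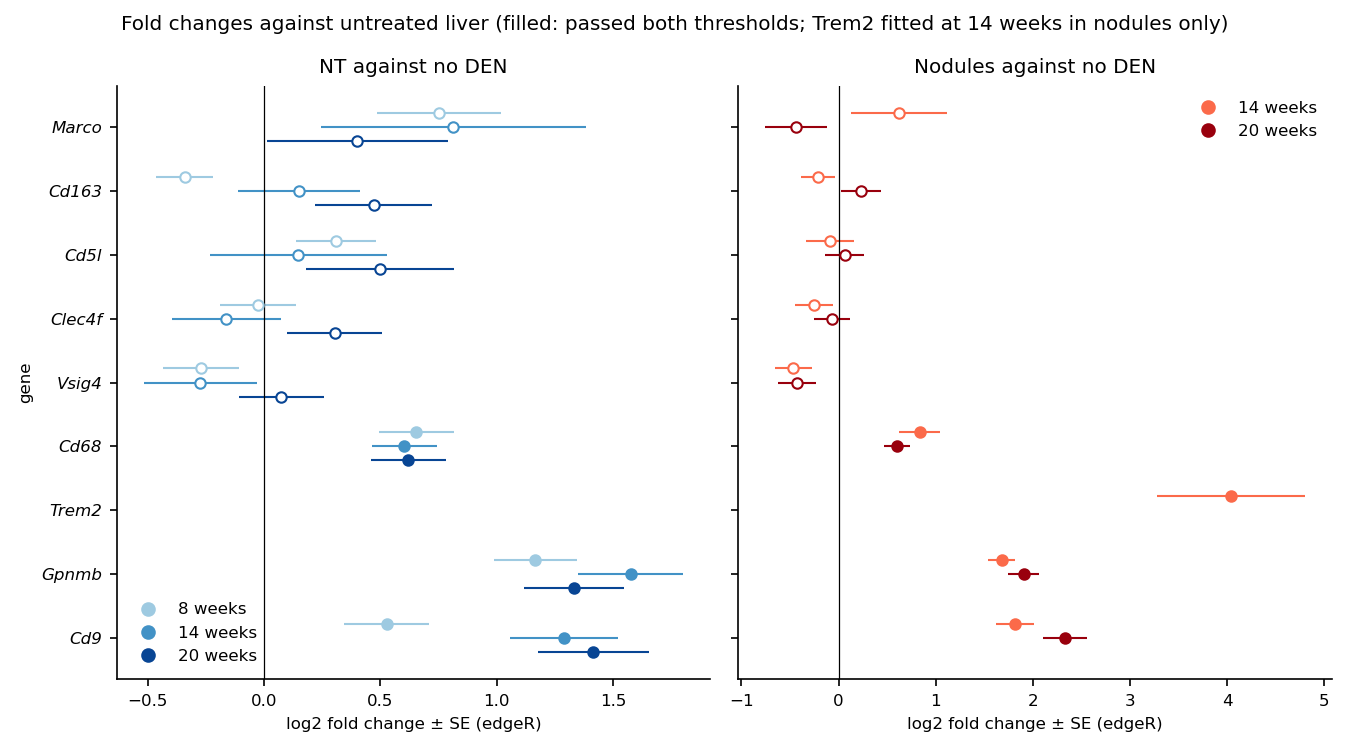
Log2 fold change against no DEN liver of the same age with its SE (x axis, edgeR), for each gene (y axis), in NT liver at 3 times and in nodules at 2 times, filled where both thresholds were passed. Cd68, Gpnmb and Cd9 are filled in all 5 comparisons, between 0.53 and 2.33, and the 5 resident genes are open in all of them. Trem2, where filled, entered the test through the nodules alone.

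Nodules and NT liver of the same rats were compared to see what set nodules apart from the tissue around them. In the unpaired edgeR fit no gene at all was called, and 0 of 9 members passed beside 0% of 11466 genes at 14 weeks and 0 of 9 beside 0% of 11546 genes at 20 weeks. At an unadjusted p of at most 0.05 it gave 1 member at 14 weeks (Cd9) and 4 at 20 weeks (Cd9 and Gpnmb higher, Marco and Vsig4 lower), out of 1348 and 2767 genes of all. DESeq2 called 0 of 8 members at 14 weeks, beside 0.35% of all genes, and 2 at 20 weeks, Cd9 and Gpnmb, where it called 7.38% of all genes, and a fit of all 8 groups called the same number of members at 20 weeks (9.45% of genes). With the rat as a block, which uses the pairing of the tissues, 4 of the 8 members tested besides Trem2 were called at 20 weeks beside 14.7% of all genes, 2 higher and 2 lower, and Trem2, described further on, was higher. At 14 weeks the blocked fit called 0 members and 0% of genes, with 3 members at an unadjusted p of at most 0.05 (Cd9, Trem2 and Cd68, all higher in nodules) beside 22% of all genes. Leaving F06 out of it, a fit chosen after seeing the data, called 2.59% of genes and still 0 members, with Gpnmb at 0.43 (adjusted p = 0.00318) and Cd9 at 0.49 (adjusted p = 0.00328) under the fold limit.

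Cd9 at 20 weeks was higher in the nodules than in the NT liver of all 4 rats, at 11.3 against 5.52 CPM in F03, 5.90 against 3.52 in H25, 10.5 against 3.81 in H26 and 9.48 against 6.37 in H28. With the block the log2 fold change was 0.95 ± 0.15 (SE, adjusted p = 0.000983, edgeR), and without it 0.93 ± 0.24 (adjusted p = 0.102). Gpnmb was likewise higher in all 4 rats at 20 weeks, by 0.62 ± 0.10 with the block (adjusted p = 0.000722) and 0.59 ± 0.17 without (adjusted p = 0.113). Taken singly, 7 of 8 nodules at 20 weeks were above their rat's NT liver in Cd9 and 8 of 8 in Gpnmb. Both calls held in the blocked fit whichever rat was left out.

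Marco and Vsig4 moved the other way at 20 weeks. Marco was lower in the nodules of all 4 rats, at 86.7 against 162 CPM in F03, 55.9 against 63.0 in H25, 46.0 against 76.9 in H26 and 37.6 against 91.4 in H28, and 0 of 8 single nodules were above their NT liver. The blocked log2 fold change was -0.81 ± 0.18 (SE, adjusted p = 0.0176, edgeR). Vsig4 was lower in the nodules of all 4 rats too, with 28.3 against 44.3 CPM in F03, 29.1 against 29.8 in H25, 23.5 against 33.6 in H26 and 17.5 against 28.3 in H28. Its blocked value was -0.50 ± 0.11 (adjusted p = 0.0056), just at the fold limit. Neither call held when F03 was left out of the blocked fit (Marco -0.76, adjusted p = 0.13, and Vsig4 -0.44, adjusted p = 0.0256) or H26 (-0.80, adjusted p = 0.0866, and -0.48, adjusted p = 0.0493), and the Vsig4 call was also lost without H28 (-0.41). Clec4f was lower in 3 of 4 rats (-0.35 ± 0.11, adjusted p = 0.0336) but under the fold limit, and Cd5l (-0.35 ± 0.15, adjusted p = 0.11) and Cd163 (-0.21 ± 0.25) did not pass. Without H25, Cd5l was called lower (-0.53, adjusted p = 0.0058), and Clec4f stood at -0.49 (adjusted p = 0.00263), in a fit that called 17.9% of all genes. Without F03 neither was called, with Cd5l at -0.19 (adjusted p = 0.303) and Clec4f at -0.25 (adjusted p = 0.156).

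Trem2 at 20 weeks was higher in nodules than NT in 4 of 4 rats, with a blocked log2 fold change of 1.26 ± 0.34 (SE, adjusted p = 0.015, edgeR). The nodules carried it past the filter, with 4 of 4 rats over its limit of 0.182 CPM against 2 of 4 in NT, so the call is given as a description. That call was lost without F03 (1.12, adjusted p = 0.0923) and without H26 (0.92, adjusted p = 0.14). By added counts the nodules were 3.94 times NT (95% exact interval 2.87 to 5.52, 175 against 50 counts), 2.59 times (1.76 to 3.93) without rat H26 and 2.79 times (1.82 to 4.36) without F03. Cd68 at 20 weeks had a blocked log2 fold change of 0.00 ± 0.08.

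**Figure D3:**
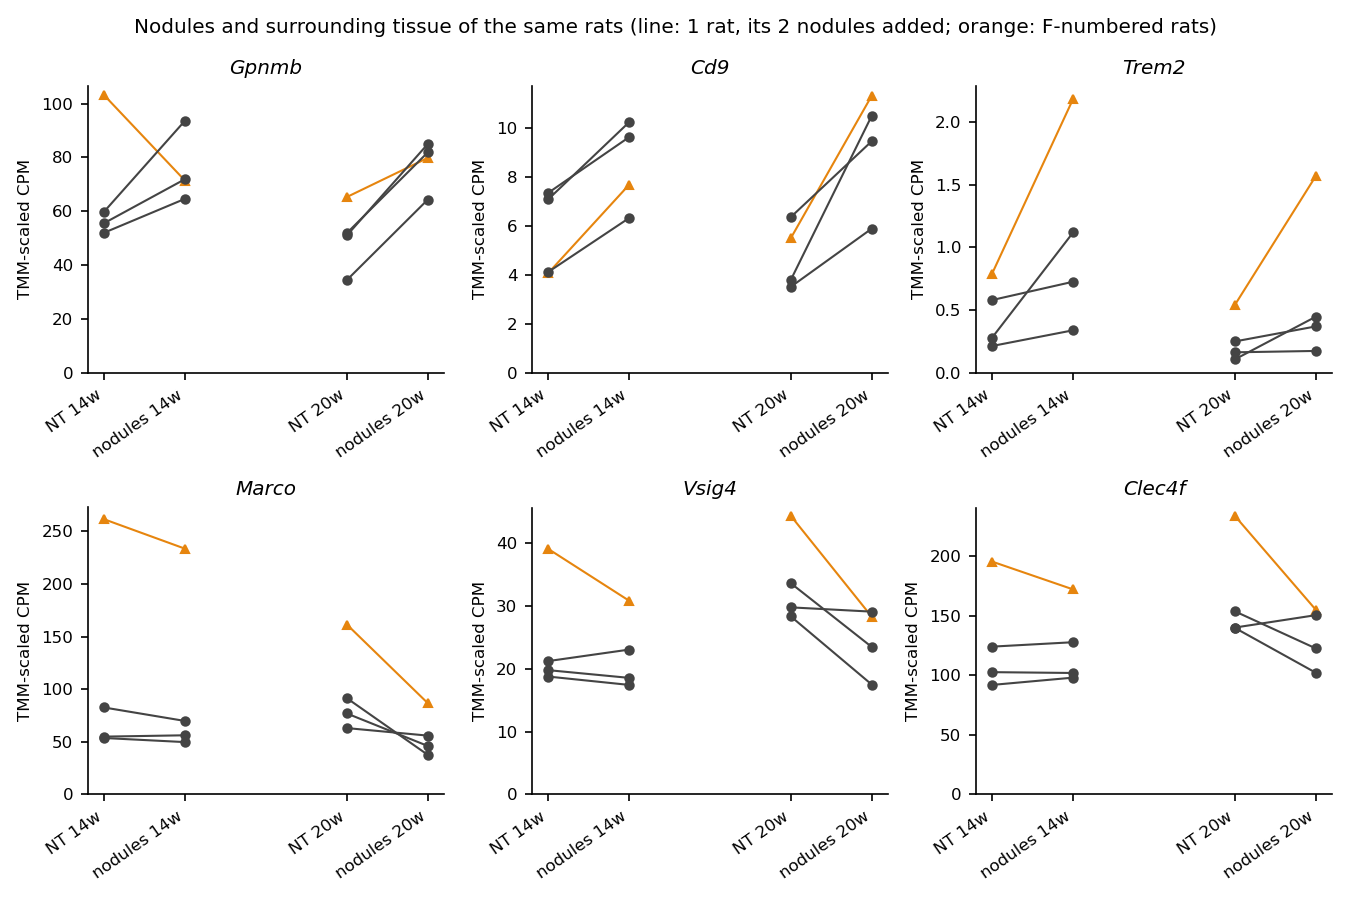
TMM-scaled CPM (y axis, from 0) of 6 genes in NT liver and nodules (x axis) at 14 and 20 weeks, each line 1 rat with its 2 nodules added and F-numbered rats in orange. At 20 weeks all 4 lines rise for Gpnmb, Cd9 and Trem2 and all 4 fall for Marco and Vsig4.

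Whether the DEN effect itself changed with time was tested as a difference of fold changes, called at an adjusted p of at most 0.05. Of 9 members, 0 passed for NT at 14 against 8 weeks, where 8.96% of 11219 genes were called, 0 for NT at 20 against 14 weeks (0.738% of genes), and 0 for nodules at 20 against 14 weeks (0.0862%). At an unadjusted p of at most 0.05 there was 1 member in the first of these and 0 in the others, beside 26.6%, 17% and 3.26% of all genes. DESeq2 called 0 members in all 3, beside 13.6%, 3.53% and 0.203% of genes. That member was Cd9, whose NT fold change was larger at 14 than at 8 weeks by 0.76 ± 0.31 (SE, log2, adjusted p = 0.13, edgeR). Without the F rats this was 1.16 and passed (adjusted p = 0.0265), beside 9.53% of all genes. The largest of the differences between nodules at 20 and 14 weeks was that of Marco, at -1.08 ± 0.65. For Gpnmb the 3 differences were 0.41 ± 0.30, -0.24 ± 0.33 and 0.22 ± 0.22, and for Cd68 they were -0.05 ± 0.23, 0.02 ± 0.23 and -0.25 ± 0.27.

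Set in order of mean level over the 8 groups, Gpnmb ran from no DEN at 20 weeks (20.3 ± 4.4 CPM, SD), 14 weeks (23.3 ± 2.8) and 8 weeks (29.96 ± 8.7) through NT at 20 weeks (50.7 ± 12.6), 8 weeks (67.4 ± 8.5) and 14 weeks (67.7 ± 23.9) to nodules at 14 weeks (75.4 ± 12.6) and 20 weeks (77.8 ± 9.2). Next neighbours in that order lay within the larger of their 2 SDs of each other, except NT at 20 weeks, which stood apart from no DEN at 8 weeks and from NT at 8 weeks by more than either SD. Cd9 had the same 3 tiers, from 1.81 ± 0.32 to 3.17 ± 0.48 CPM in no DEN, 4.58 ± 1.01 to 5.66 ± 1.81 in NT and 8.48 ± 1.80 to 9.31 ± 2.40 in nodules. Marco and Cd5l were ordered otherwise, with both 8-week groups at the top: 201 ± 63.9 and 119 ± 37.8 CPM for Marco and 201 ± 15.7 and 162 ± 47.5 CPM for Cd5l, NT before no DEN. Clec4f also had both 8-week groups at the top, at 192 ± 55.2 CPM in no DEN and 190 ± 11.4 CPM in NT. Untreated livers at 8 weeks held more of all 5 resident genes on average than those at 14 or 20 weeks, and more of Cd68, Gpnmb and Cd9 too. This difference between untreated rats of different age was not tested.

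The genes whose profile over the 8 group means lay nearest to a member, by root mean square distance of centred log2 CPM, were taken from all genes with a mean of at least 1 CPM. For Cd68 the 3 nearest were Slc44a2, Arrb2 and the complement gene C1qc, at 0.05 log2 units each. For Gpnmb they were Dpp7 (0.07), Clic1 (0.10) and Ehd4 (0.11), and for Cd9 Isyna1, Acss1 and Msln (0.13 to 0.15). Among the resident genes, Cd163 had Clec4f nearest (0.14), Marco had Ccl6, Odf3b and then Cd5l (0.25 to 0.27), and Cd5l shared Ccl6 (0.14) and Odf3b (0.15) with it, followed by Fcna (0.16). Vsig4 had Slc17a2 and Myd88 among its nearest (0.09 each), Clec4f had Clec2g, Slc17a9 and Ldb1 (0.10 each), and Trem2 had Fndc1, Pkmyt1 and Iqgap3 (0.22 to 0.26). These distances are descriptions over 8 means, with many genes to choose from.

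Other genes of the lipid and scar-associated program were mostly higher as well. As background to this and the following lists, 16.5%, 22.8% and 14.3% of all genes tested were called higher in NT at 8, 14 and 20 weeks, and 23.9% and 23.6% in nodules at 14 and 20 weeks. Those called lower were 5.21%, 9.85% and 3.82% in NT and 15.2% in nodules at both times. Of 14 tested, 8, 9 and 8 were higher in NT liver at 8, 14 and 20 weeks and 1, 1 and 2 lower, with median log2 fold changes of 0.99, 1.42 and 0.92 against medians of all genes within 0.04 of 0. In nodules 9 were higher at both times, and 1 and 2 were lower. The largest was Pla2g7, a secreted phospholipase of activated macrophages, with log2 fold changes of 3.28, 5.92 and 5.22 in NT and 7.26 and 7.17 in nodules. Which cells held it was not tested, and it was larger in nodules than in NT at 20 weeks, where Cd68 stood at 0.60 and 0.62. Mmp12, the macrophage elastase, had 3.21, 4.18, 3.57, 4.63 and 4.72, and Lpl, lipoprotein lipase, 1.56, 1.67, 1.84, 1.90 and 2.18. Fabp4, a fatty acid carrier of macrophages that capillary endothelium also makes, had 3.13, 4.25, 3.73, 4.77 and 4.93, and Spp1, osteopontin, which bile duct cells also make, 0.93, 2.12, 1.998, 2.71 and 2.77. All of these passed. The lysosomal genes Ctsb and Ctsd did not pass in any of the 5, and Plin2, the coat of lipid droplets, was lower in all 5, from -0.56 at 8 weeks to -1.33 in nodules at 14 weeks. With the block, 5 of 14 were higher in nodules than NT at 20 weeks, among them Mmp12 (1.18) and Fabp4 (1.19), and 0 lower, where that fit called 9.21% of all genes higher and 5.46% lower.

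Partners of Trem2 in signalling were higher in every comparison with no DEN liver in 4 of 6 cases. Tyrobp, the adaptor of TREM2, had log2 fold changes of 1.12, 0.91 and 0.75 in NT at 8, 14 and 20 weeks and 1.29 and 0.81 in nodules at 14 and 20 weeks. The kinase Syk (0.68, 0.84, 0.83, 1.04 and 0.87), the lipase Plcg2 and the phosphatase Inpp5d also passed in all 5. Hcst and the TREM2 ligand Apoe did not pass in any, Apoe standing at -0.12, -0.50, -0.13, -0.49 and -0.33.

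Further genes of resident Kupffer cells were mixed. Of 10 tested, 3, 3 and 5 were higher in NT at the 3 times and 4 and 4 in nodules, and 0 were lower, where shares of genes called higher overall ran from 14.3% to 23.9%. The share was nearest to that of all genes in NT at 14 weeks (3 of 10 against 22.8%) and farthest in NT at 20 weeks (5 of 10 against 14.3%). Pltp, a phospholipid carrier, passed in all 5 comparisons with no DEN, and the iron exporter Slc40a1 from 14 weeks on (1.24 and 0.81 in NT, 1.21 and 1.51 in nodules). Fcna, Vcam1 and Sdc3 passed in none. Among 16 genes of macrophages in general, 4, 8 and 6 were higher in NT and 8 and 9 in nodules, including C1qc and Fcgr1a in all 5. Cd14 was lower at 8 weeks (-1.25) and 14 weeks (-0.81) in NT and in nodules (-0.86 and -0.71), and Mpeg1 at 14 weeks in NT (-0.58) and in nodules (-0.94 and -0.69).

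Of 10 genes of recruited monocytes tested, 9, 9 and 6 were higher in NT and 9 and 7 in nodules, against the same 14.3% to 23.9% of all genes, with 0 lower and 1, 1, 4, 1 and 3 not passing. Lyz2, lysozyme, had log2 fold changes of 1.61, 1.03 and 0.82 in NT and 1.29 and 1.17 in nodules. Ccr2 was not analysed here. Of 7 macrophage growth factor and recruitment ligands tested, 5, 4 and 5 were higher in NT and 4 and 5 in nodules, with 0 lower. Among them the chemokine Ccl2 (1.24, 1.78, 1.56, 2.02 and 2.29) and the growth factor Csf1 (0.64, 1.04, 0.63, 1.06 and 0.82) passed in all 5 comparisons. Of 12 transcription factors of macrophages, 4, 6 and 5 were higher in NT with 0 lower, and 4 and 5 were higher in nodules with 2 and 1 lower. Spic (1.54, 0.86, 1.13, 1.19 and 1.16), Id3 and Irf8 passed in all 5. Mitf, Tfe3, Tfeb and Rbpj passed in none.

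**Figure D4:**
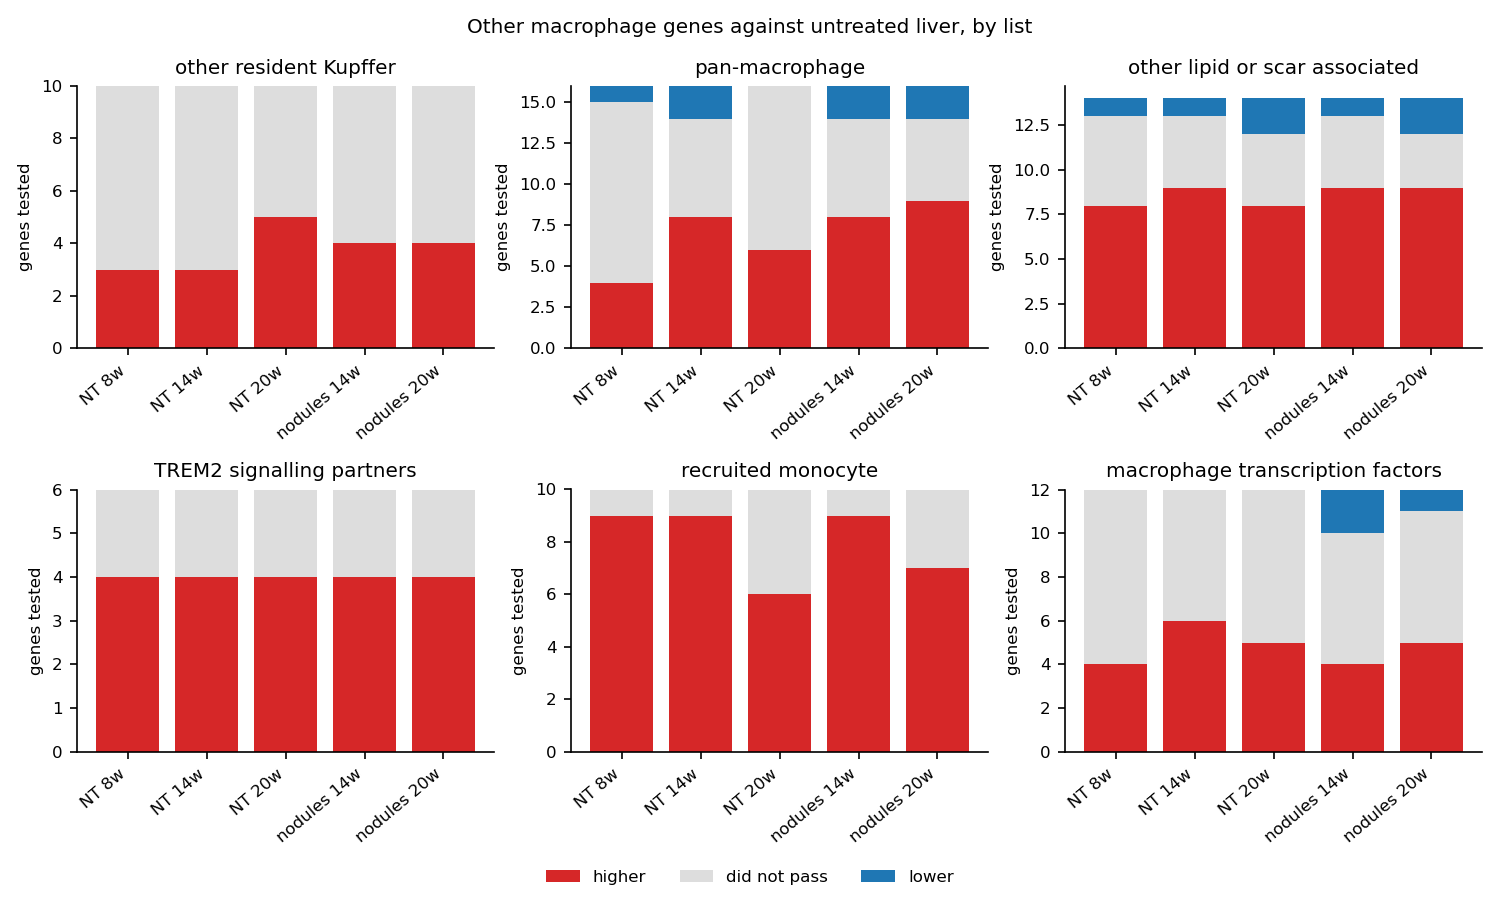
Number of genes tested (y axis) in each of 6 lists of other macrophage genes that were higher, lower or did not pass against no DEN liver, in NT at 3 times and nodules at 2 times (x axis). In the recruited monocyte list 9, 9 and 6 of 10 were higher in NT, and in the other resident Kupffer list 3, 3 and 5 of 10.

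Markers of other liver cells moved with the groups as well, and their part in the results was not tested. The 6 cholangiocyte genes tested were higher in 3, 6 and 6 cases in NT and 6 and 6 in nodules, with Krt19 at 0.88, 3.74, 3.04, 4.58 and 5.21 (log2). Summed over the list they reached 17.6 to 25.2 CPM in no DEN rats of all ages, 30.1 to 38.4, 41.5 to 92.8 and 37.9 to 59.8 CPM in NT at 8, 14 and 20 weeks, and 69.4 to 124 and 75.5 to 192 CPM in nodules at 14 and 20 weeks. The median of the sum, like the mean of Cd9, was lowest in no DEN and highest in nodules at 14 and 20 weeks, and at 14 weeks the ranges of NT and nodules overlapped. This order was not particular to them. The mean of Gpnmb and the median sums of the stellate or myofibroblast and other resident Kupffer lists had it at both times too. With the block 5 of the 6 were higher in nodules than NT at 20 weeks, while 4 of 6 hepatocyte genes were lower, beside 9.21% of all genes higher and 5.46% lower. Against no DEN liver, 1, 3 and 0 of the 6 hepatocyte genes were lower in NT at 8, 14 and 20 weeks and 4 and 4 in nodules, beside 5.21%, 9.85% and 3.82% of all genes in NT and 15.2% in nodules, and 0, 1 and 1 in NT and 1 and 1 in nodules were higher. Their sums were 193000 to 242000, 143000 to 183000 and 179000 to 241000 CPM in NT and 124000 to 153000 and 114000 to 180000 CPM in nodules, below all no DEN rats of the same age in NT at 8 and 14 weeks and in nodules. Of 7 stellate or myofibroblast genes, 6, 6 and 4 were higher in NT and 5 and 5 in nodules, Pdgfrb was lower in NT at 14 weeks (-0.58), and the list had sums of 177 to 266 CPM in no DEN, 247 to 490 in NT and 280 to 499 in nodules, and Col1a2 was at 0 in all 40 libraries. Of 6 sinusoidal endothelial genes, 5 were higher in all 5 comparisons, with sums of 58.4 to 155 CPM in no DEN and 163 to 237 CPM in the DEN groups. T cell genes, 6 in all, summed to 1.31 to 2.44 CPM in no DEN and 2.60 to 6.98 CPM in the DEN groups. The neutrophil genes S100a8 and S100a9, which monocytes also carry, were higher in NT at 8 weeks by 2.57 and 2.59. Of the 3 neutrophil genes tested, 3, 3 and 2 were higher in NT at 8, 14 and 20 weeks, and 1 and 0 in nodules at 14 and 20 weeks. Of 5 platelet genes, 4 were found, and Gp1bb was at 0 in all 40 libraries and Ppbp in 34.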

How the data were processed

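Total RNA of rat liver was sequenced as stranded messenger RNA libraries. Per the labels and the paper's methods, the authors aligned the 75 bp read pairs to rn6 with STAR 2.7.1a and counted pairs on exons with HTSeq on the reverse strand, keeping pairs that mapped once. The values deposited by the authors are raw counts for 17337 genes in 40 libraries, not normalized. The lines of unassigned pairs were left out (no feature: 21.49% to 34.48%). Groups came from the labels, and both nodules of each rat were summed. Each comparison used its own groups, filterByExpr, TMM scaling and edgeR 4.0.16 in R 4.3.3 (robust quasi-likelihood fit, 2-sided F test) with Benjamini-Hochberg adjustment over all genes tested. Genes were called at log2 fold changes of 0.5 or more, up or down, with adjusted p no higher than 0.05, and differences of effects by the adjusted p alone. SE is the log2 fold change over the root of F. The fit was tested on simulated data. DESeq2 1.42.0 was run as an alternative. Rat numbers pair NT and nodules of the same animal, and deviations from the group means correlated in every pair (r of 0.391 to 0.595 over genes). Named were all members, the listed genes, and the 3 genes nearest in profile to each member, apart from some that are not reported here. The members and lists were chosen with earlier results of these data known. Depth was 20528515 to 160622633 pairs. No libraries of a group agreed within sampling noise (the smallest chi-square was 13.4 times its degrees of freedom). Rats are the replicates. Promoter sequences came from RefSeq (GRCr8), matched by symbol for all 10 members.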

Additional observations from a re-analysis of the deposited data

Results flagged for a closer look

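Within groups of 4 rats, the highest or lowest rat was compared with the others by the ratio of its gap to the whole range (Dixon's test at its 95% critical value), over 72 combinations of gene and group. For independent values chance alone gives about 1 in 20, but the genes of 1 rat are not independent. The test picked out 10, and 8 of them came from the F rats F06 and F03, mostly F06.

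Rat F06 stood apart in NT liver at 14 weeks for 5 genes. Marco was at 262 CPM against 53.6 to 82.6 CPM in the other 3 rats, and Cd5l at 210 CPM against 68 to 91.7 CPM. Vsig4 was at 39.1 CPM against 18.8 to 21.2 CPM, Cd68 at 49.5 CPM against 35.3 to 36.9 CPM, and Gpnmb at 103 CPM against 52.1 to 59.9 CPM.

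The nodules of the same rat at 14 weeks stood apart in Marco, at 234 CPM against 49.7 to 69.8 CPM, and in Cd68, at 70.1 CPM against 38.1 to 42.8 CPM. Its first nodule had the largest share of pairs outside exons, 34.48%, and the part of this in the levels was not tested.

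Rat F03 stood apart in NT liver at 20 weeks in Clec4f, at 233 CPM against 140 to 154 CPM. For Trem2 the rats set apart were untreated ones with 2 counts each, H05 at 8 weeks (0.0818 CPM against 0.0388 to 0.042 CPM) and H16 at 20 weeks (0.0839 CPM against 0 CPM), where 1 or 2 reads decide the value.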

How the results depend on the processing

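Nodules and NT liver of a rat are paired, and the replicate block changed calls at 20 weeks: members called higher went from 0 to 3 (Trem2 among them) and lower from 0 to 2. DESeq2 (7.38% of all genes) and the fit of all 8 groups (9.45%) each called 2 higher there, and leaving out each rat, with or without the block (the former chosen after seeing the data), gave 0 to 3 higher and 0 to 3 lower. At 8 weeks 3 members were called higher in NT, against 1 at 2-fold and an adjusted p of 0.01 (7.91% of all genes), 5 with DESeq2 (adding Marco and Trem2, 20.7%), 1 without the F rats (17.8%), and 2 to 5 with each rat left out. At 14 weeks 1 member was called lower in NT and 1 in nodules without the F rats in place of 0 (0 to 1 with each rat left out), and 1 difference of NT effects between 14 and 8 weeks was called in place of 0. CPM without TMM moved 9 of 72 group means by more than 1 SD: in nodules at 14 weeks Cd163 to 32.2, Cd9 to 10.5 and Gpnmb to 93.4, at 20 weeks Cd5l to 121, Cd68 to 46.6 and Gpnmb to 92.4, and in no DEN at 14 weeks Clec4f to 124, Gpnmb to 19.6 and Vsig4 to 25.8.

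Of 593 fold changes of members under the alternatives other than leaving out single rats, 544 kept their direction and side of the threshold, 11 lost the call, 13 gained it and 25 changed sign, none of those 25 being called. Changed signs without the F rats were, in NT at 14 weeks, Marco -0.031, Cd163 -0.148 and Cd5l -0.383, in NT at 20 weeks Vsig4 -0.082, in nodules at 14 weeks Marco -0.17 and at 20 weeks Cd5l -0.003, and in nodules against NT Cd163 0.04, Cd5l 0.057 and Clec4f 0.024 at 14 weeks and Cd163 0.024 and Cd68 0.026 at 20 weeks. In differences of effects they were Marco -0.316 (NT, 14 against 8 weeks), and Marco 0.075 and Cd9 -0.073 (NT, 20 against 14 weeks). With 1 nodule per rat they were Cd5l 0.01 at 14 weeks and Clec4f 0.062 at 20 weeks against no DEN, Clec4f 0.037 at 14 weeks and Cd68 0.131 at 20 weeks against NT, and Cd5l -0.008, Clec4f -0.03, Vsig4 -0.064 and Trem2 -0.041 between times. For Cd68 in nodules against NT at 20 weeks they were also 0.001 with no filter, 0.022 with all 8 groups and 0.004 with the block.

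With each rat left out in turn, 797 of 904 fold changes kept direction and side, 9 lost the call, 21 gained it and 77 changed sign. For results with a changed sign, values ran in NT from -0.131 to 0.191 (Clec4f, 8 weeks), -0.031 to 1.045 (Marco, 14 weeks), -0.148 to 0.281 (Cd163), -0.383 to 0.319 (Cd5l), and -0.082 to 0.213 (Vsig4, 20 weeks). In nodules against no DEN they ran from -0.17 to 0.866 (Marco, 14 weeks), -0.327 to 0.081 (Cd5l, 14 weeks), -0.11 to 0.238 (Cd5l, 20 weeks) and -0.19 to 0.073 (Clec4f, 20 weeks). In nodules against NT at 14 weeks they ran from -0.473 to 0.04 (Cd163), -0.298 to 0.057 (Cd5l), -0.095 to 0.024 (Clec4f) and -0.051 to 0.445 (Gpnmb), and at 20 weeks from -0.496 to 0.024 (Cd163) and -0.059 to 0.046 (Cd68). With the block, the highest were 0.045 (Cd163), 0.054 (Cd5l) and 0.025 (Clec4f) without F06 at 14 weeks, and at 20 weeks 0.024 (Cd163), with Cd68 between 0.013 and 0.057 where its sign changed. Differences between 14 and 8 weeks in NT ran from -0.768 to 0.267 (Marco), -0.315 to 0.109 (Vsig4), -0.232 to 0.089 (Cd68) and -0.728 to 0.141 (Trem2), those between 20 and 14 weeks from -0.763 to 0.425 (Marco), -0.081 to 0.151 (Cd68), -0.272 to 3.379 (Trem2), -0.388 to 0.041 (Gpnmb) and -0.044 to 0.279 (Cd9), and those in nodules from -0.028 to 0.42 (Cd5l), -0.087 to 0.235 (Vsig4), -0.348 to 0.019 (Cd68) and -0.396 to 3.925 (Trem2). The cause of these changes was not tested. Of the 9 genes, Trem2 had the lowest counts, with at most 3 in each untreated library, so depth limits it more than the others.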
